A study of Mus musculus with 2 samples.

Results

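The Hox genes of the mouse were described here as the 29 gene rows of the deposited tables that are named Hoxa, Hoxb, Hoxc or Hoxd plus a number from 1 to 13, out of 23075 gene rows in either table. They comprised 7 Hoxa, 9 Hoxb, 5 Hoxc and 8 Hoxd rows. At E9.5 24 of them were among the 20575 rows deposited, at E11.5 28 were among 20823, and 23 were found at both stages. Hoxa13 had a row at E9.5 only, and Hoxc11, Hoxc12, Hoxd11, Hoxd12 and Hoxd13 at E11.5 only. The 10 other Hox genes of the annotation had no row at either stage. These are Hoxa3, Hoxa4, Hoxa5, Hoxa6, Hoxb13, Hoxc6, Hoxc8, Hoxc9, Hoxc13 and Hoxd4. All sums and shares by cluster and paralogue group below lack them.

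Hox genes encode homeodomain transcription factors that give cells of the embryo their position along the head-to-tail axis. They lie in 4 clusters, and genes at matching places in different clusters form a paralogue group with a shared number. Within a cluster, low numbers are switched on earlier and reach further towards the head, and high numbers are switched on later and stay nearer the tail, so that a cell's set of Hox genes works as a positional code. Several Hox genes also act in blood: Hoxa9 is needed for normal function of blood stem cells, and forced Hoxb4 expands them.

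The counts came from single wells of 2 ICELL8 nanowell chips, 1 for embryonic day 9.5 (E9.5) and 1 for E11.5, loaded with cells of wild-type C57Bl/6 embryos. On each chip were 4 sorted pools. The tissue was either the aorta-gonad-mesonephros (AGM), the part of the trunk around the aorta where the first blood stem cells form, or the yolk sac, an extra-embryonic membrane that makes the earliest blood. Both were split by VE-cadherin, an endothelial adhesion protein, into positive (endothelial) and negative (surrounding) live cells, with 7AAD-stained dead cells gated out. The labels do not say how many embryos were pooled, and each of the 8 pools is 1 sample, so no test was run and values describe these pools. Stage and chip cannot be told apart.

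After filtering, 284 to 379 wells remained per pool, the median well had 2538 to 12452 counts, and pool totals ran from 841341 to 3862642. Levels are given as CPM, a gene's counts per 1000000 counts of its pool. The 95% intervals are exact and express counting error alone, and counts may include copies of 1 molecule. The 12 endothelial markers summed to 1259 to 2197 CPM in the positive pools and 52.0 to 84.0 CPM in the negative pools, as the gates are labelled. Globins and other red cell markers took 177199 to 367805 CPM in 6 pools but 42187 and 32306 CPM in the AGM negative pools. On these 2 chips 473 well barcodes were shared.

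The AGM negative pools carried by far the most Hox RNA at both stages. Summed over all rows, the E9.5 pools gave 616 Hox counts (362 CPM, 334 to 392) in AGM negative, 144 (75.7 CPM, 63.8 to 89.1) in AGM positive, 82 (59.3 CPM, 47.2 to 73.6) in yolk sac positive and 33 (8.54 CPM, 5.88 to 12.0) in yolk sac negative cells. At E11.5 the sums were 524 counts (480 CPM, 440 to 523), 70 (83.2 CPM, 64.9 to 105), 52 (43.9 CPM, 32.8 to 57.6) and 86 (52.7 CPM, 42.2 to 65.1) in the same order. In a summed pool, fewer cells with Hox RNA and less Hox RNA per cell cannot be told apart.

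**Figure D1:**
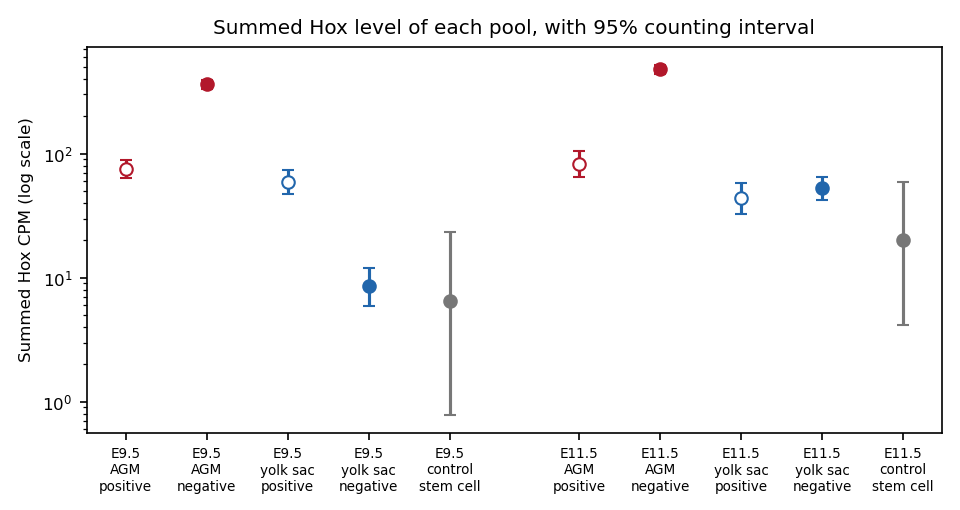
Summed Hox level of each pool in CPM on a log axis, AGM in red and yolk sac in blue, open circles for the VE-cadherin positive and filled circles for the negative gate, bars for the 95% counting interval, and grey for wells with stem cell RNA. The AGM negative pools stand at 362 and 480 CPM, and the E9.5 yolk sac negative pool at 8.54 CPM lies within the interval of its control wells.

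Wells loaded with RNA of mouse embryonic stem cells, which should carry little Hox RNA, set the background. They held 2 Hox counts at E9.5 (6.44 CPM, 0.780 to 23.3) and 3 at E11.5 (20.1 CPM, 4.15 to 58.8). At E9.5, AGM negative, AGM positive and yolk sac positive cells stood above these wells by 5.81 (3.96 to 8.86), 3.56 (1.68 to 6.61) and 3.20 (1.30 to 6.27) on the log2 scale. Yolk sac negative cells did not, at 0.41 (-1.56 to 3.51), so their Hox level was not distinguishable from background. At E11.5 both AGM pools were above it, at 4.58 (3.02 to 6.86) and 2.05 (0.44 to 4.36). The yolk sac intervals included 0 there, at 1.13 (-0.50 to 3.45) for the positive and 1.39 (-0.21 to 3.70) for the negative pool. Wells without a cell held 1 Hox count at E9.5 (155 CPM) and 2 at E11.5 (116 CPM), out of only 6452 and 17289 counts. At E9.5 the interval of these wells reached 864 CPM and included the level of every pool. At E11.5 it reached 418 CPM and included every pool but AGM negative. So few counts cannot place the included pools above the wells without a cell.

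The share of wells with at least 1 Hox count followed the same order. Unthinned, it was 79.1% in AGM negative, 35.5% in AGM positive, 22.5% in yolk sac positive and 10.2% in yolk sac negative cells at E9.5, where median depths were 4396, 5832, 3961 and 12452 counts. At E11.5 it was 71.8%, 19.4%, 11.7% and 18.7%, at depths of 2805, 2538, 3008 and 3842. Stem cell RNA wells gave 4.35% and 6.38%, at depths of 6733 and 2975. With each well thinned to 2000 counts, the E9.5 shares were 51.1% (45.8 to 56.4), 15.9% (11.9 to 20.5), 12.2% (8.84 to 16.3) and 1.97% (0.728 to 4.25), and those at E11.5 were 58.0% (51.6 to 64.2), 16.4% (11.7 to 22.2), 8.72% (5.87 to 12.4) and 8.79% (6.09 to 12.2). The thinned stem cell RNA wells gave 0 of 46, which allows a share of up to 6.52% at 3 counts of the total (7.71% by the exact interval), and 1 of 38 (2.63%, 0.0666 to 13.8). Thinning left out 0 to 6 wells per pool at E9.5, and at E11.5 77 of AGM positive, 87 of AGM negative, 22 of yolk sac positive and 15 of yolk sac negative cells. The AGM negative pools thus led at equal total depth, and the E9.5 yolk sac negative pool, the deepest of the 8, had the smallest share. The 2000 counts include haemoglobin, so depth in other genes was not equal. Its median share was 4.54% and 3.44% in AGM negative wells and 19.0% to 38.1% in the other pools.

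**Figure D2:**
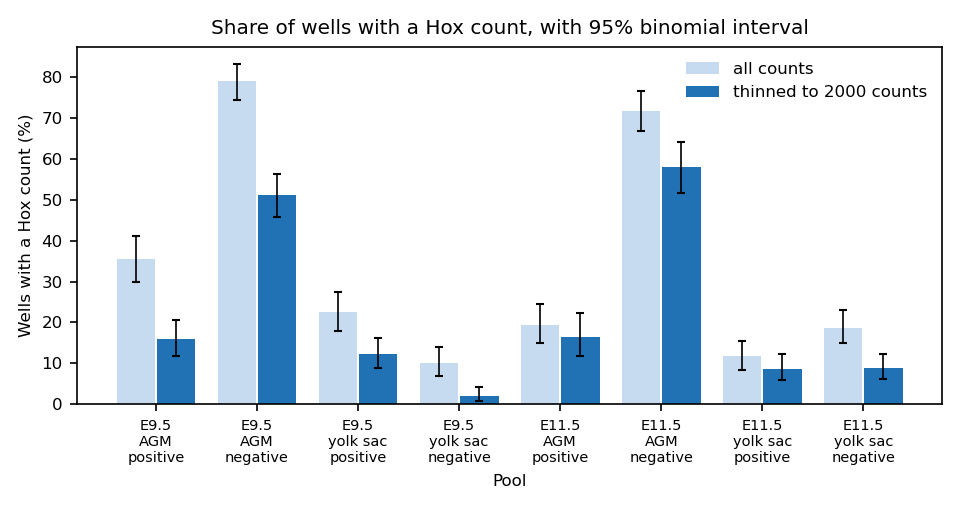
Percent of wells with at least 1 Hox count in each pool, from all counts (light bars) and after thinning each well to 2000 counts (dark bars), with exact 95% binomial intervals. After thinning, the AGM negative pools stand at 51.1% and 58.0% and no other pool passes 16.4%.

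The first comparison was AGM against yolk sac in the VE-cadherin negative gate, the cells around the vessels. Of 24 Hox rows at E9.5, 10 had at least 20 counts over both pools and are called measured. Each of these 10 exceeded the yolk sac level by 4-fold or more, as did 24.4% of all measured gene rows. Their median log2 ratio was 5.81, against 1.17 for all measured rows. At E11.5, 5 of 8 measured Hox rows were at least 4-fold higher (background 11.1%), with a median of 3.29 against 0.87. The 10 rows of E9.5 had 0 to 6 counts in yolk sac negative cells. At both stages the rows called passed the 20-count limit mainly through AGM, so the numbers called and the medians lean on that limit. The summed levels below use every Hox row. At a 2-fold threshold the counts were 10 of 10 (background 56.0%) and 8 of 8 (43.8%). No measured Hox row was 4-fold or more lower in AGM, where 2.12% of all measured rows were at E9.5 and 2.59% at E11.5. Since the all-gene medians lie well above 0, a ratio is also given relative to them: the summed Hox level was 42.4-fold higher in AGM at E9.5 (log2 5.41, 4.90 to 5.96) and 18.9-fold relative to the median row, and 9.11-fold higher at E11.5 (3.19, 2.86 to 3.53) and 4.97-fold relative to it. The E9.5 ratios are set against a yolk sac pool whose Hox level was not distinguishable from that of the stem cell RNA wells. The same limit holds for the E11.5 ratios. TMM scaling (a trimmed mean of the gene ratios) placed the all-gene medians at 0.04 and 0.01 and the Hox sums at 4.27 and 2.32.

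Markers of visceral endoderm, the outer layer of the yolk sac, moved with this comparison. All 8 measured of the 10 markers were at least 4-fold lower in AGM negative cells at both stages, with medians of -3.99 and -3.53. They summed to 18.2 CPM (Apoa2, Amn and Hnf4a at 0) and 270 CPM (Amn at 0) in AGM negative and to 315 and 3216 CPM in yolk sac negative cells at E9.5 and E11.5. At least 3 were held by 169 of 305 and 313 of 379 yolk sac negative wells, and by 0 of 354 and 10 of 337 AGM negative wells. At E11.5, 377 of the 379 yolk sac wells held at least 3 mesenchymal markers, so these lists do not sort the wells into cell types. Within the yolk sac pools the Hox level was low with and without these markers: wells with at least 3 had 10.1 CPM (6.42 to 15.2) and the rest 6.28 CPM at E9.5, with overlapping intervals, and 51.8 (40.6 to 65.2) and 58.5 CPM (31.2 to 100) at E11.5.

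Hoxa7, a trunk gene of the middle of its cluster, showed the widest gap. It gave 123 counts (72.4 CPM) in E9.5 AGM negative cells, where 101 of 354 wells held it, and 0 in the 305 yolk sac negative wells; against a floor of 3 counts it was at least 93.2-fold higher. At E11.5 it gave 93 (85.3 CPM) and 2 counts (1.23 CPM), a log2 ratio of 6.12 (4.23 to 9.19). The positive pools gave 28 (14.7 CPM) in AGM and 4 (2.89 CPM) in yolk sac at E9.5, and those of E11.5 gave 5 and 2.

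Hoxa9 gave 52 counts (30.6 CPM) in AGM negative and 2 in yolk sac negative cells at E9.5, and 76 (69.7 CPM) and 4 at E11.5. Its log2 ratio was 5.88 (3.96 to 8.97) and then 4.83 (3.41 to 6.74). In positive cells of AGM and yolk sac it gave 16 and 6 counts at E9.5, and at E11.5 13 and 9. Hoxa10, the next gene towards the tail end of the cluster, had 8 counts in AGM negative, 0 in yolk sac negative, 4 in AGM positive and 1 in yolk sac positive cells at E9.5. At E11.5 it had 27, 3, 6 and 3 in that order, and its negative gate log2 ratio was 3.75 (2.05 to 6.11). All 3 named Hoxa rows were thus higher in the AGM of the negative gate.

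The 5 named Hoxb rows were higher in AGM negative cells too. Hoxb3, a gene of the hindbrain and neck level, gave 59 counts (34.7 CPM) against 2 in yolk sac negative cells at E9.5 and 47 (43.1 CPM) against 4 at E11.5, so that the log2 ratio was 6.07 (4.15 to 9.15) and then 4.13 (2.68 to 6.07). Hoxb4 gave 50 against 2 counts and 15 against 6, or 5.83 (3.90 to 8.91) and 1.90 (0.45 to 3.56). Hoxb6, a gene of trunk mesoderm, gave 37 against 6 and 67 against 14, or 3.81 (2.55 to 5.34) and 2.84 (1.99 to 3.78). For Hoxb7 the counts were 34 against 3 and 13 against 5, or 4.69 (3.02 to 7.03) and 1.96 (0.38 to 3.80). Hoxb9, the row of the cluster nearest the tail end here, gave 60 against 2 at E9.5, or 6.09 (4.18 to 9.17), and 12 against 0 at E11.5, at least 5.98-fold higher. Every interval lay above 0, and those of Hoxb4 and Hoxb7 reached below the all-gene median at E11.5.

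Hoxc4 and Hoxc5 were also higher in AGM negative cells, but at the later stage gave more yolk sac negative counts than any other row. In E9.5 AGM negative cells Hoxc4 gave 49 counts (28.8 CPM) and Hoxc5 35 (20.6 CPM), against 2 and 3 in yolk sac negative cells, log2 ratios of 5.80 (3.87 to 8.88) and 4.73 (3.06 to 7.07). At E11.5 Hoxc4 gave 49 (44.9 CPM) against 23 (14.1 CPM) and Hoxc5 55 (50.4 CPM) against 21 (12.9 CPM), or 1.67 (0.93 to 2.45) and 1.97 (1.22 to 2.77). Between these chips the CPM of both rows was higher at E11.5 in the negative cells of both tissues. The fold was larger in the yolk sac, where it started from 2 and 3 counts, and the CPM difference was larger in AGM. The annotated Hoxc5 gene overlaps Hoxc10, Hoxc9, Hoxc8 and Hoxc6 on the same strand, so its counts may include theirs. In all, 15 of the 29 rows overlap another gene, and the strand setting of the counting is not given in the sources used here.

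**Figure D3:**
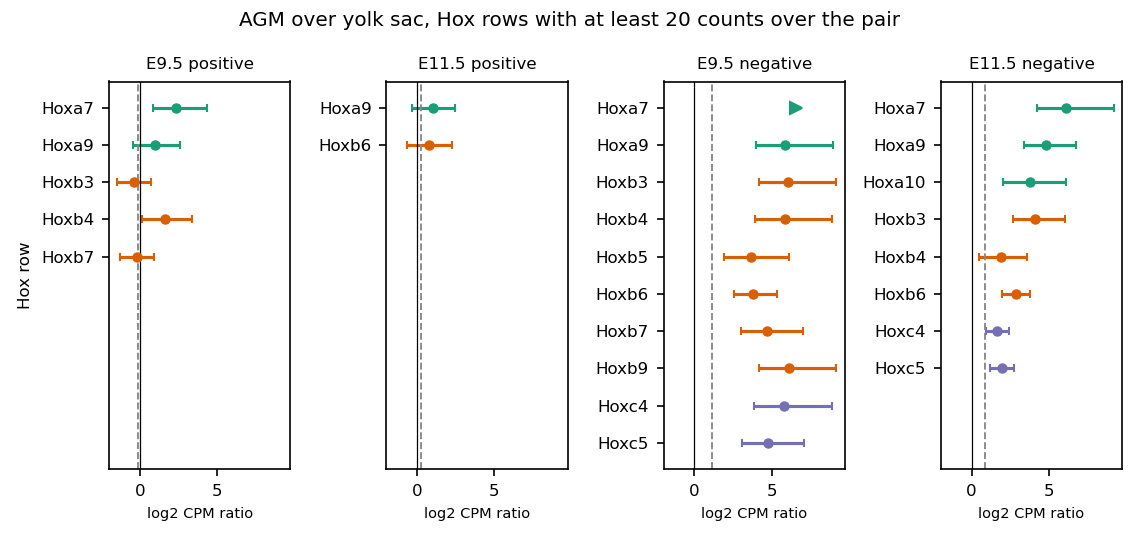
AGM over yolk sac log2 CPM ratio of each Hox row with at least 20 counts over the pair, by stage and gate, with 95% counting intervals; a triangle is a lower bound (Hoxa7 at 0 counts in yolk sac), the solid line is 0 and the dashed line the median of all measured gene rows. All 10 rows of E9.5 negative cells lie above 3, while the positive gate has 5 and 2 measured rows.

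The other 19 rows had under 20 counts in every pool. At E9.5, 14 of these were in the table, with 0 to 19 counts each and 109 in sum in AGM negative cells, 33 in AGM positive, 30 in yolk sac positive and 11 in yolk sac negative cells. At E11.5, 18 were in the table, and each of the 18 had 1 to 14 counts in AGM negative cells, 70 in sum, against 7, 9 and 4 in the other pools. All 8 Hoxd rows were among them. The Hoxd cluster gave 15 counts at E9.5 and 24 at E11.5 in AGM negative cells and 0 in both yolk sac negative pools, at least 11.4-fold and 12.0-fold higher in AGM. The rows of groups 11 to 13, which pattern the hindmost trunk and tail, gave 0 counts in AGM negative cells at E9.5, where only Hoxa11 and Hoxa13 had a row. The only E9.5 counts of these rows were 2 of Hoxa11 and 1 of Hoxa13 in yolk sac negative cells. AGM negative cells at E11.5 gave 1 to 3 counts each for Hoxa11, Hoxc11, Hoxc12, Hoxd11, Hoxd12 and Hoxd13.

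**Figure D4:**
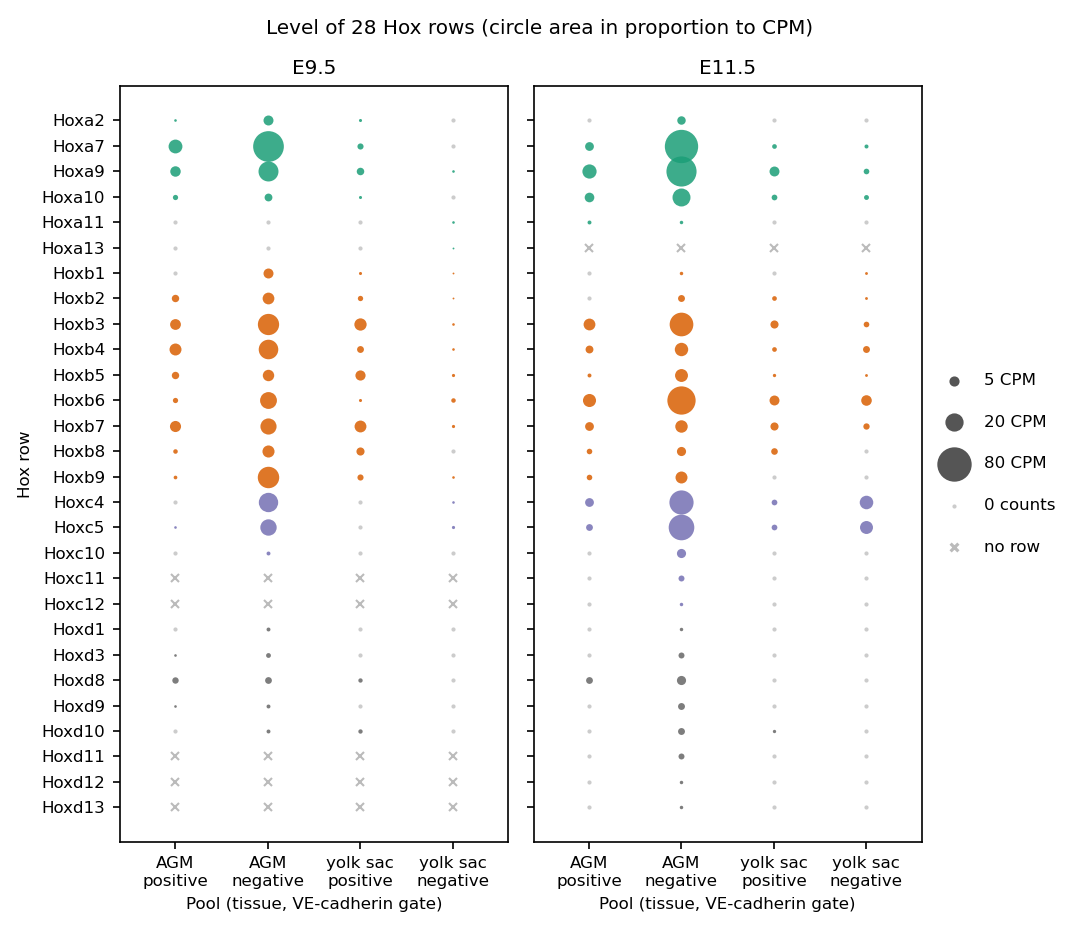
Level of 28 Hox rows in the 8 pools, circle area in proportion to CPM and colour by cluster, a dot for 0 counts and a cross where the table has no row. The AGM negative columns are filled across clusters, and at E11.5 the Hoxc4 and Hoxc5 circles of yolk sac negative cells (14.1 and 12.9 CPM) stand out from the rest of their column.

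Promoter sequence is shown for 1 gene of each cluster, so that the start regions of genes that share a pool can be compared. RefSeq promoters (GRCm38.p6) were matched by symbol for 18 of the 29 genes, which gave 20 promoters, and in each cluster the matched gene with the highest CPM summed over the pools was taken. Each line is the 250 bases before the transcript start, 5′ to 3′ on the gene's strand, with capitals for the letters TTTATG, a core recognised by the Cdx proteins that switch on trunk Hox genes. These are Hoxa7 at chr6:52218574-52218823 on the minus strand, Hoxb4 at chr11:96318017-96318266, Hoxc4 at chr15:103034145-103034394 and Hoxd8 at chr2:74704365-74704614, these on the plus strand.
Hoxa7: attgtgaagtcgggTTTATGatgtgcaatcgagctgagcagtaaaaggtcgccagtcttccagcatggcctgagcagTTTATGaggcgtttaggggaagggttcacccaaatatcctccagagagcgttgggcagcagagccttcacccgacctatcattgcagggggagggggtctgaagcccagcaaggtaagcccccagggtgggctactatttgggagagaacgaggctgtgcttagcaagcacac
Hoxb4: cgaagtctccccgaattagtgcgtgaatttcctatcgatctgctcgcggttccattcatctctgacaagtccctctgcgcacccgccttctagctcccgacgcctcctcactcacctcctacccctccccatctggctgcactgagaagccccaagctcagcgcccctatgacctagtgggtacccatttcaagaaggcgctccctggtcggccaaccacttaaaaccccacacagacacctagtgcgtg
Hoxc4: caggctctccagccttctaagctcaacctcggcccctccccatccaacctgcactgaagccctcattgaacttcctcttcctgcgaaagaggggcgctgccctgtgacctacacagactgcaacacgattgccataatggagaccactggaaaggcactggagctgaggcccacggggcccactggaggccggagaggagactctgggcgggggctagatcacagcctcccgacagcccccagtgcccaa
Hoxd8: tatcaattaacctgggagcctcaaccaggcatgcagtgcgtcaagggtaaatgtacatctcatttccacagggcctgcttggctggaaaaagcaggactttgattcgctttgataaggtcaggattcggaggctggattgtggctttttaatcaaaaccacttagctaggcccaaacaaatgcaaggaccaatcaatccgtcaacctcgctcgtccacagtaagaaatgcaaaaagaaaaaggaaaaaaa
Hoxa7 holds TTTATG at 236 and 173 bases before its start, and the other three hold none in this window. On either strand TTTATG was in 4 of 20 Hox promoters (Hoxa7, Hoxb8, Hoxd3 and Hoxd11) and in 10.8% of all 32851 promoters of this length. TGATNNAT, a core of joint sites of Pbx and Hox proteins, was in 4 of 20 (Hoxa2, Hoxb1, Hoxb8 and Hoxd11) and 7.68% of all. The motifs can share the letters TG, which they did in none of the 20, and a match describes letters only. The Hox promoters had a median of 12.0 CG dinucleotides, against 6.00 over all promoters.

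The second comparison was AGM against yolk sac in the VE-cadherin positive, endothelial gate, where the gap was small. The summed Hox log2 ratio was 0.35 (-0.05 to 0.76) at E9.5, an interval that includes 0, and 0.92 (0.38 to 1.47) at E11.5. The E11.5 yolk sac positive pool was not distinguishable from the stem cell RNA wells. Of 5 measured rows at E9.5, 1 (Hoxa7) was at least 4-fold higher in AGM, where 0.842% of all measured rows were; of 2 at E11.5, none was (background 1.67%). At a 2-fold threshold the counts were 2 of 5 (Hoxa7 and Hoxb4, background 3.58%) and 1 of 2 (Hoxa9, background 10.8%). None was 4-fold or more lower in AGM (backgrounds 2.69% and 1.41%). Set against all-gene medians of -0.12 and 0.24, the Hox sums were 1.39-fold and 1.61-fold higher. Under a stricter well filter, which asked for 1000 genes and allowed 10% mitochondrial counts, only 77 of 284 AGM and 77 of 343 yolk sac positive wells were left at E11.5, and the ratio was 0.20 (-0.62 to 1.03).

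Within endothelial cells of E9.5 the cluster sums differed. Hoxa rows summed to 54 counts (28.4 CPM) in AGM and 15 (10.8 CPM) in yolk sac, a log2 ratio of 1.39 (0.54 to 2.32), and Hoxb rows to 81 (42.6 CPM) and 63 (45.6 CPM), a ratio of -0.10 (-0.59 to 0.40). The intervals of these sums do not overlap, but Hoxa7 gave 28 of the 54 and 4 of the 15 Hoxa counts. In endothelial-marker wells alone (described next) the ratios were 1.32 (0.47 to 2.25) and -0.13 (-0.63 to 0.38). There Hoxa9, with 16 against 6 counts, stood at 0.89 (-0.54 to 2.53), so the gap between the clusters leans on Hoxa7. Hoxc rows gave 1 count in AGM and 0 in yolk sac, and Hoxd rows 8 and 4. Among rows, Hoxa7 stood at 2.35 (0.83 to 4.32) and Hoxb4 at 1.61 (0.16 to 3.37) with 21 against 5 counts, while Hoxb3 (17 against 16) stood at -0.37 (-1.45 to 0.71) and Hoxb7 (18 against 15) at -0.20 (-1.27 to 0.89). Hoxb6 gave 4 against 1 and Hoxb9 2 against 4 counts, Hoxc5 1 against 0, and Hoxc4 none in either pool. The row counts of E11.5 were low: 9 against 6 for Hoxb3, 4 against 2 for Hoxb4, 11 against 9 for Hoxb6, 5 against 6 for Hoxb7, 2 against 0 for Hoxb9, 5 against 3 for Hoxc4 and 3 against 3 for Hoxc5. At E11.5 Hoxa gave 25 against 15 counts, or 1.23 (0.25 to 2.26), Hoxb 34 against 30, or 0.67 (-0.08 to 1.43), and Hoxc 8 against 6, or 0.91 (-0.81 to 2.71).

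Not every positive well held endothelial markers, and markers of other cell types were counted too. At E9.5, 280 of 299 AGM and 284 of 325 yolk sac positive wells held at least 3 of the 12 endothelial markers, but only 126 of 284 and 129 of 343 did at E11.5, and 36 and 42 of these held exactly 3. Another 70 and 73 wells held exactly 2 at E11.5. The median positive well had 752 and 777 genes there, against 1831 and 1504 at E9.5, so missed markers and other cells cannot be told apart. Wells with at least 3 had a Hox level above that of the rest of the pool in all 4 pools, with overlapping intervals in each. In AGM it was 77.9 (65.6 to 91.8) against 25.1 CPM (3.04 to 90.8) at E9.5 and 110 (79.9 to 148) against 58.9 CPM (38.5 to 86.4) at E11.5. In yolk sac it was 62.5 against 25.4 CPM and 63.9 against 30.8 CPM. In these wells alone the AGM over yolk sac log2 ratio of summed Hox was 0.32 (-0.09 to 0.73) and 0.78 (0.08 to 1.5). Mesenchymal markers summed to 380 CPM over 10 of 11 genes (Twist1 at 0) in E11.5 AGM positive cells, against 30.0 CPM at E9.5, and 21 wells there with at least 3 of them had 178 CPM of Hox (92.2 to 312); in yolk sac positive cells they summed to 799 CPM, and 54 such wells had 51.3 CPM of Hox (24.6 to 94.4) against 42.5 CPM in the rest. Visceral endoderm markers summed to 7970 CPM in E11.5 yolk sac positive cells, where 337 of 343 wells held at least 3 of them, and to 391 CPM in AGM positive cells, where 12 of 284 did (Amn and Hnf4a at 0). At E9.5 they summed to 96.9 CPM (Hnf4a at 0) and 9.46 CPM (Apoa2, Apom, Amn and Hnf4a at 0). The 337 wells include most of the 129 with endothelial markers, so holding 3 markers of a list does not make a well that cell type. Visceral endoderm cells and stray RNA from them cannot be told apart here. Macrophage markers, at least 3 of them, were held by 34 AGM and 31 yolk sac positive wells of E11.5. Hox levels in these wells were 36.5 (11.9 to 85.3) and 28.9 CPM (7.87 to 74.0). The part of these marker lists in the positive gate ratios was not tested.

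The third comparison was between the gates of the AGM. Each measured Hox row had a lower level in the endothelial gate, though the interval of Hoxb5 at E9.5 included 0. Lower by 4-fold or more were 6 of 12 at E9.5 (background 7.61%) and 6 of 7 at E11.5 (background 13%), with median log2 ratios of -2.13 and -2.23 against -0.38 and -0.80 for all measured rows. Summed, the log2 ratio of positive over negative was -2.26 (-2.53 to -2.0) and -2.53 (-2.91 to -2.17). At E9.5 the rows ranged from Hoxb7, at -1.08 (-1.99 to -0.22), to Hoxb9 with 2 against 60 counts, at -5.07 (-8.15 to -3.15), and Hoxc5 with 1 against 35, at -5.29 (-10.64 to -2.72). Hoxc4 gave 0 against 49 counts, which is at or below -4.19 by the 3-count floor, so it may be the lowest. At E11.5 they ranged from Hoxa10, at -1.80 (-3.36 to -0.49), to Hoxa7, at -3.84 (-5.50 to -2.57).

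Hoxc rows made up 1 of 144 Hox counts in E9.5 AGM positive cells (0.694%, 0.0176 to 3.81) and 0 of 82 in yolk sac positive cells, which allows up to 3.66% at 3 counts of the total (4.40% by the exact interval). In AGM negative cells on the same chip they made up 86 of 616 (14%, 11.3 to 17.0). At E9.5 the Hoxc share of the endothelial pools was thus not that of the AGM negative pool. At E11.5 the shares were 8 of 70 (11.4%, 5.07 to 21.3), 6 of 52 (4.35 to 23.4%) and 115 of 524 (21.9%, 18.5 to 25.7). Both endothelial intervals there overlapped that of AGM negative cells.

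In the yolk sac the gates stood the other way round at E9.5. Positive over negative, the summed log2 ratio was 2.80 (2.20 to 3.42) at E9.5, with Hoxb at 63 against 20 counts, or 3.14 (2.39 to 3.94), and Hoxa at 15 against 8, or 2.39 (1.06 to 3.83). Hoxb3 gave 16 against 2 counts, or 4.48 (2.39 to 7.65), and Hoxb7 15 against 3, or 3.80 (1.98 to 6.23). None of the rows reached 20 counts over this pair. At E11.5 the sum stood at -0.26 (-0.79 to 0.25), and 2 of 3 measured rows, Hoxc4 and Hoxc5, were at least 4-fold lower in positive cells (background 4.69%), at -2.48 (-4.86 to -0.75) and -2.35 (-4.73 to -0.60). These rows passed the 20-count limit through 23 and 21 counts in negative cells, against 3 each in positive cells.

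Hoxc4 and Hoxc5 set the E11.5 yolk sac negative pool apart. They made up 44 of its 86 Hox counts (51.2%, 40.1 to 62.1), in 36 of 379 wells with either and 3 with both, against 104 of 524 (19.8%, 16.5 to 23.5) in AGM negative cells. The other Hox rows there summed to 42 counts (25.8 CPM), near the 20.1 CPM (4.15 to 58.8) of the stem cell RNA wells. The whole Hox level of the pool, 52.7 CPM, also lay within that interval. Without the 2 rows the AGM over yolk sac log2 ratio of that gate was 3.90 (3.44 to 4.40) and the positive over negative ratio of the yolk sac 0.59 (-0.04 to 1.23). Mesenchymal markers summed to 8733 CPM in this pool over 11 of 11 genes, and 377 of its 379 wells held at least 3. Their part in the Hoxc level was not tested. In wells with at least 3 mesenchymal markers the negative gate ratio of AGM over yolk sac was 5.30 (4.75 to 5.89) at E9.5, over 100 and 256 wells, and 3.17 (2.83 to 3.52) at E11.5, over 235 and 377. These wells may hold different markers in the 2 tissues. By 4-fold or more, Pdgfra, Pdgfrb, Twist1 and Prrx1 were higher and Col1a1, Postn, Dcn and Lum lower in AGM negative cells at E9.5. At E11.5 Twist1 and Prrx1 were higher and Col1a1, Col1a2, Postn and Lum lower.

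By position in the clusters, the pools differed less than by level. Shares are read between pools only, since a row's counts also depend on its transcript. Groups 1 to 3 took 19.5% (16.4 to 22.8) of Hox counts in E9.5 AGM negative cells, 22.2% (15.7 to 29.9) in AGM positive, 29.3% (19.7 to 40.4) in yolk sac positive and 21.2% (8.98 to 38.9) in yolk sac negative cells. Groups 9 to 13 took 20.5% (17.3 to 23.9), 16% (10.4 to 23.0), 15.9% (8.72 to 25.6) and 21.2% (8.98 to 38.9). At E9.5 all these intervals overlap within a class, so a head-to-tail difference between AGM and yolk sac was not detectable among these rows at this depth. In the negative gate the AGM over yolk sac log2 ratio was likewise 5.28 (4.20 to 6.63) for groups 1 to 3, 5.47 (4.80 to 6.22) for 4 to 8 and 5.35 (4.27 to 6.70) for 9 to 13.

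At E11.5 groups 1 to 3 took 12.2% (9.53 to 15.3) in AGM negative, 12.9% (6.05 to 23.0) in AGM positive, 17.3% (8.23 to 30.3) in yolk sac positive and 8.14% (3.34 to 16.1) in yolk sac negative cells. Groups 9 to 13 took 26.7% (23.0 to 30.7), 31.4% (20.9 to 43.6), 25.0% (14 to 38.9) and 8.14% (3.34 to 16.1), so the interval of yolk sac negative cells lay below those of both AGM pools and overlapped that of yolk sac positive cells. Without Hoxc4 and Hoxc5 in the total, the posterior shares were 33.3% (28.8 to 38.1), 35.5% (23.7 to 48.7), 28.3% (16 to 43.5) and 16.7% (6.97 to 31.4), and all these intervals overlapped. Its groups 4 to 8, which hold Hoxc4 and Hoxc5, took 83.7% (74.2 to 90.8). In that gate the AGM over yolk sac log2 ratio was 3.77 (2.65 to 5.14), 2.73 (2.36 to 3.12) and 4.90 (3.82 to 6.24) for the classes in order, and 3.53 (2.96 to 4.15) for groups 4 to 8 without the 2 Hoxc rows.

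**Figure D5:**
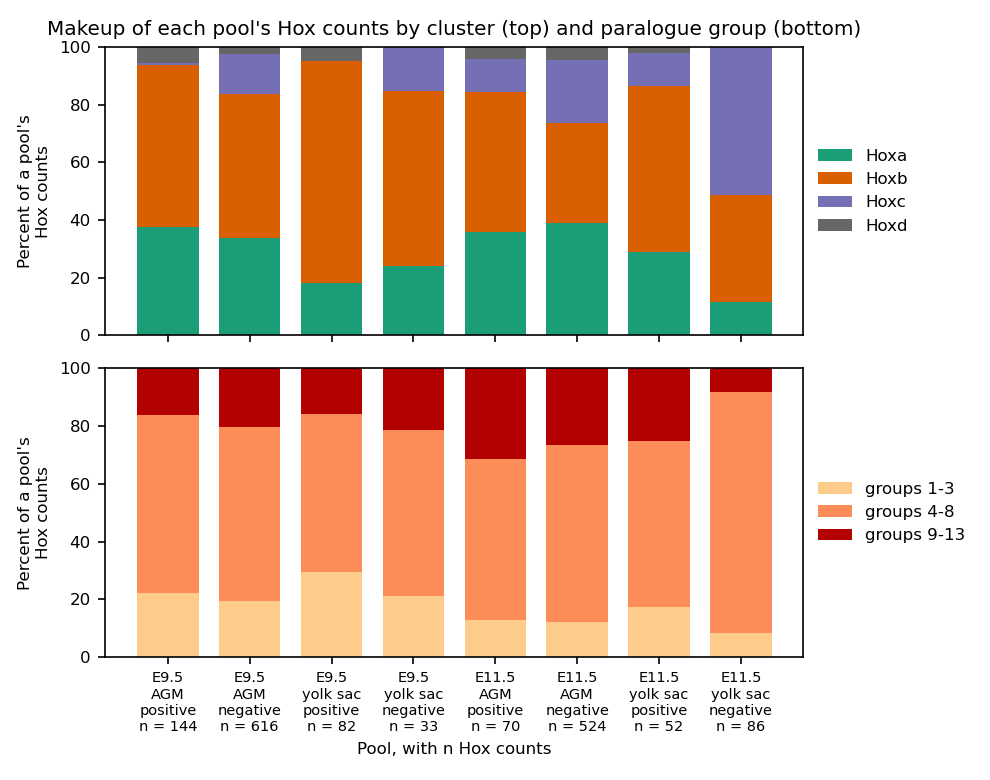
Percent of each pool's Hox counts by cluster (top) and by paralogue group class (bottom), with the number of Hox counts under each bar. The Hoxc share runs from 0 in E9.5 yolk sac positive to 51.2% in E11.5 yolk sac negative cells, and groups 1 to 3 hold 19.5% of E9.5 and 12.2% of E11.5 AGM negative counts.

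Between the AGM negative pools of the 2 chips, the foremost group had a smaller share at E11.5. This first paralogue group, which marks the hindbrain, took 27 of 616 counts (4.38%, 2.91 to 6.31) at E9.5 and 4 of 524 (0.763%, 0.208 to 1.94) at E11.5. Group 3 changed little, from 10.1% (7.80 to 12.7) to 9.54% (7.17 to 12.4). Hoxa10 went from 1.30% (0.562 to 2.54) to 5.15% (3.42 to 7.41) and Hoxb6 from 6.01% (4.26 to 8.18) to 12.8% (10.0 to 16). Groups 9 to 13 went from 20.5% to 26.7%, with overlapping intervals. Not every row followed its position: Hoxb9 went from 9.74% (7.52 to 12.4) to 2.29% (1.19 to 3.97), and from 54 of 354 to 12 of 337 wells. Hoxb4 went from 8.12% (6.08 to 10.6) to 2.86% (1.61 to 4.68). By cluster, Hoxb went from 49.8% (45.8 to 53.9) to 34.4% (30.3 to 38.6) and Hoxc from 14% (11.3 to 17.0) to 21.9% (18.5 to 25.7). Except for group 3 and groups 9 to 13, the intervals of each pair named here do not overlap, and stage and chip cannot be told apart in them.

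Single wells of AGM negative cells often held several Hox rows. At E9.5, 161 of 354 wells (45.5%) had 2 or more, 120 of these from at least 2 clusters, and the most in 1 well was 7. At E11.5 it was 123 of 337 (36.5%), 101 from at least 2 clusters, and the most was 8. In the other pools 0.328% to 6.69% of wells had 2 or more. Rows of groups 1 to 3 and of groups 9 to 13 were found together in 31 and 19 AGM negative wells, where 66 and 76 wells held groups 9 to 13 without groups 1 to 3. In the same pools 18 and 8 wells had at least 3 somite and muscle markers, with 399 (292 to 532) and 273 (141 to 476) CPM of Hox, and 14 and 4 had at least 3 neural markers, with 330 (224 to 468) and 805 (440 to 1351) CPM. By mesenchymal markers the levels lay within counting error of each other. Wells with at least 3 had 362 CPM (315 to 414) and the rest 363 CPM (328 to 400) at E9.5, and 476 (430 to 525) and 494 CPM (412 to 588) at E11.5.

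Genes that work with or upstream of Hox proteins were taken from lists, to be read against the all-gene backgrounds of the negative gate (24.4% at least 4-fold higher in AGM at E9.5 and 11.1% at E11.5, medians of 1.17 and 0.87). Of the TALE cofactors, homeodomain proteins of the Pbx, Meis and Pknox families that bind DNA with Hox proteins, 6 of 8 measured genes were at least 4-fold higher in AGM negative than yolk sac negative cells at E9.5, with a median log2 ratio of 3.27, and 2 of 7 at E11.5, with a median of 1.5. Meis2 stood at 5.11 (4.62 to 5.64) with 546 against 36 counts and at 2.78 (2.48 to 3.10) with 488 against 106. In endothelial cells of E9.5 Meis1 and Meis2, with 52 against 162 and 84 against 250 counts, were lower in AGM by just past 4-fold (background 2.69%), at -2.10 (-2.58 to -1.64) and -2.03 (-2.41 to -1.67). At E11.5 they stood at -0.26 (-0.91 to 0.37) and -0.33 (-0.72 to 0.05).

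Of the retinoic acid list, the signal that switches on head-end Hox genes, 7 of 8 measured genes were at least 4-fold higher in AGM negative cells at E9.5 (median 5.27) and 5 of 9 at E11.5 (median 3.53). Aldh1a2, the enzyme that makes most retinoic acid in the early embryo, gave 69 against 0 counts at E9.5 and 31 against 1 at E11.5, and Rarb, a receptor and itself a target of the signal, 82 against 4 and 75 against 7. Of the Polycomb list, which keeps Hox clusters silent, 5 of 13 and 2 of 13 were at least 4-fold higher in AGM negative cells, with medians of 1.67 and 0.88; the E11.5 values were near the background of 11.1% and 0.87. Ezh2, its methyltransferase, stood at 1.84 (1.67 to 2.02) and 2.91 (2.53 to 3.31). Of the list of Hox inputs, 3 of 6 and 0 of 5 were, with medians of 1.84 and 1.16. Cdx1 gave 4, Cdx2 0 and Cdx4 1 count in E9.5 AGM negative cells, so these activators could not be compared. In the positive gate none of the 4 lists had a gene at least 4-fold higher in AGM but Kdm6b, a histone demethylase, at E9.5, with 125 against 12 counts, or 2.92 (2.06 to 3.91).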

How the data were processed

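The authors deposited raw counts: for each chip, a matrix of genes by wells in whole numbers, and a list giving every well's stage, tissue and gate. Per the submitters' processing notes the authors used FastQC, cutadapt and STAR with mm10 (GRCm38). Not given in the sources used here are tool versions, the counting tool, its strand setting, and whether molecular identifiers were used.

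A well was kept if it had 500 or more genes and no more than 20% mitochondrial counts (1283 of 1284 at E9.5, 1343 of 1482 at E11.5). Pool sums were scaled to CPM, and 2 pools were set against each other by the log2 of their CPM ratio, with an exact 95% interval from the conditional binomial. A pool at 0 was given the floor (3 counts), and rows with at least 20 counts over a pair were counted as measured. Shares have exact binomial (Clopper-Pearson) intervals. Thinning drew 2000 counts per well without replacement. Scrublet marked 1 (0.0779%) and 6 (0.447%) wells as doublets, which were kept. The ratio step was tested on simulated counts. Positions and overlaps came from GENCODE M21 (GRCm38). Values in all pools are given for rows with at least 20 counts in a pool, other rows by range, and 1 row is in the sums but not reported singly here. Members and lists were chosen with earlier results of these data known. Alternatives were other well filters, TMM scaling (edgeR 4.0.16), totals without haemoglobin and mitochondrial genes, each gene counted at most once per well, equal weight per well, doublets left out, other thresholds, classes and thinning depths. The alternatives for the AGM gates, and leaving out Hoxc4 and Hoxc5, were chosen after seeing the data. Software was Python 3.11.15, scipy 1.17.1 and scanpy 1.11.5.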

Additional observations from a re-analysis of the deposited data

Results flagged for a closer look

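Summed Hox RNA differed between the VE-cadherin gates in opposite directions in the tissues of E9.5, which was not tested. Positive over negative, the log2 ratio was -2.26 in AGM and 2.80 in yolk sac. The same held for Hoxa (-2.11 and 2.39), for Hoxb (-2.08 and 3.14), and for groups 1 to 3 (-2.07 and 3.26), 4 to 8 (-2.22 and 2.73) and 9 to 13 (-2.62 and 2.38), which share their counts with the sum. In yolk sac, groups 4 to 8 also stood on opposite sides at E9.5 (2.73) and E11.5 (-0.80), likewise not tested. The E9.5 yolk sac negative pool, which the E9.5 yolk sac ratios are set against, was not distinguishable from the stem cell RNA wells.

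Non-coding rows of the clusters, left out of the Hox sums, held counts in AGM negative cells. At E9.5 the antisense row Hoxb5os stood at 43.5 CPM, Hoxaas3 at 30.0, Hoxaas2 at 10.6 and Hotairm1 at 3.53. At E11.5 Hoxaas3 stood at 16.5 CPM, Hoxb5os at 11 CPM, Hoxaas2 at 10.1, Hoxa11os at 4.58 and Hotairm1 at 3.67. Stem cell RNA wells had 0 for these rows, except 6.71 CPM (1 count) for Hoxaas3 at E11.5. For a row at 0 the exact upper limit in these wells is 11.9 CPM at E9.5 and 24.7 CPM at E11.5, which only the E9.5 values of Hoxb5os and Hoxaas3 exceed, so the others were not distinguishable from the control. At E9.5 wells without a cell held 2 counts of Hoxb5os, which is 310 CPM of their few counts. Hoxb5os overlaps Hoxb5 and Hoxb6, Hoxaas3 overlaps Hoxa7 and Hoxa11os overlaps Hoxa11 on the other strand, so reads of these pairs may not be told apart.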

How the results depend on the processing

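Of 193 alternatives, 153 stayed within the interval of the reported value (or within 1.5 times a count), 40 moved and 0 turned a ratio around. For the negative gate AGM over yolk sac log2 ratio, the E9.5 and E11.5 values were 4.27 and 2.32 with TMM scaling, 4.80 and 2.65 with totals without haemoglobin and mitochondrial genes, and 4.08 and 2.33 with each gene counted at most once per well. For the AGM gates these settings gave -1.81 and -1.89, -1.96 and -2.11, and -1.77 and -1.81. In the E11.5 positive gate the strict filter gave 0.20. Rows at least 2-fold higher in AGM were 2 and 1 in the positive gate at E9.5 and E11.5 and 8 in the E11.5 negative gate, and with at least 50 counts over the pair 6 were 4-fold higher in the E9.5 negative gate. That minimum, and the strict filter at E11.5, left no measured row in the positive gate, so they gave no value there. Counting group 4 with groups 1 to 3 raised their share to 36.8% and 35.6% in E9.5 AGM positive and negative cells, 25.7% and 24.4% at E11.5, and 41.9% in E11.5 yolk sac negative cells. Without Hoxc4 and Hoxc5 the E11.5 negative gate ratio was 3.90, groups 9 to 13 took 33.3% in E11.5 AGM negative cells, and they and groups 1 to 3 each took 16.7% in yolk sac negative cells. Shares of wells without thinning were 35.5%, 79.1%, 22.5% and 10.2% at E9.5 (AGM positive and negative, yolk sac positive and negative) and 71.8% and 18.7% in E11.5 AGM and yolk sac negative cells. Thinned to 1000 counts they were 6.35%, 29.9% and 4.92% in the first 3, and 8.83%, 40.7%, 3.79% and 3.43% at E11.5. The strict filter gave 15.6% of 77 wells in E11.5 yolk sac positive cells.

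No paired analysis was possible because each pool is 1 sample and the labels pair none. Depth limits single rows: 3 counts are 0.777 to 3.57 CPM by pool, and 19 of 29 rows stayed under 20 counts in every pool.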

Other observations

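Halr1, a non-coding row beside the Hoxa cluster, had its highest level in control wells. It gave 20 counts (64.4 CPM) and 5 counts (33.5 CPM) in the stem cell RNA wells of the E9.5 and E11.5 chips, where the Hox rows summed to 2 and 3 counts. In the E9.5 pools it gave 9 counts (5.30 CPM) in AGM negative and 2 (1.05 CPM) in AGM positive cells and 0 in both yolk sac pools, and in all 4 pools of E11.5 it gave 0.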
